A study of Mus musculus with 38 samples.

Results

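The genes described here are 41 mouse genes of mevalonate, cholesterol and fatty acid synthesis and of its regulation by the transcription factors SREBP and LXR. They were chosen by name from what is known of the pathway of Fdps, the farnesyl diphosphate synthase that zoledronic acid (ZA) inhibits. No cut on measured values picked them, but earlier results of these data were known when they were chosen. They fall into 7 genes of the mevalonate steps, 11 of the squalene and sterol steps, 5 of SREBP regulation, 7 of sterol transport, uptake control, efflux and storage, 9 of fatty acid synthesis and the 2 LXR receptors. All 41 were present among the 47729 genes of the whole marrow table and the 46679 genes of the precursor table, and all 41 passed the filter on low counts in every fit.

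RNA sequencing was done on whole bone marrow and on sorted osteoclast precursors of female C57BL/6 mice aged 6 to 7 weeks. Mice of the combined group received ZA, a bisphosphonate, at 100 µg/kg into the peritoneum, followed from 2 days later by 3 daily doses of the recombinant human cytokine G-CSF (granulocyte colony-stimulating factor) at 50 µg/kg. The G-CSF group received the cytokine at that dose alone, the ZA group ZA alone, and the untreated group neither agent. Whole marrow was measured in 2 combined, 3 G-CSF, 2 ZA and 2 untreated libraries, with 6.24 to 16.2 M estimated counts each. Precursors, sorted as cells with CD115 on the surface and without TER119, CD45R, CD11b, CD3 or Ly-6G/Ly-6C (lineage markers), were measured in sequencing run 1 in 3 combined, 3 G-CSF, 1 ZA and 1 untreated library, with 21.0 to 33.2 M. The labels number the libraries as biological replicates but tie none to an animal of its own, and the p-values reflect how far these libraries spread, which may be in part technical. Nude mice appear in the labels too, for separate experiments.

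The labels of run 1 were checked against markers. Csf1r, which encodes CD115, had 43.3 to 77.9 TPM (a transcripts-per-million level, scaled to transcript length) in run 1 precursors and 9.05 to 13.4 TPM in run 1 marrow, and Ly6g, a neutrophil marker, had 0.892 to 10.1 TPM in precursors and 172 to 508 TPM in marrow. Cd3e, the gene of a CD3 chain, had 0 to 0.0159 TPM in precursors and 0 to 2.00 TPM in marrow. Itgam, which encodes CD11b, had 11.5 to 32.5 TPM in precursors and 31.5 to 57.3 TPM in marrow. Ptprc, the gene that gives CD45R, had 30.1 to 59.3 TPM in precursors and 23.8 to 40.3 TPM in marrow. For Itgam and Ptprc the materials overlapped, and neither gene was absent from the sorted cells. A second run went against its labels. Erythroid markers took 0.0823 to 49.1% of TPM in its 15 libraries labelled precursor, over 8% in 7 of them, and took 0.136 to 38.9% in its 3 libraries labelled marrow, under 1.5% in 2 of them. The main results below use run 1 precursors only, and run 2 libraries enter only alternative fits named as such. No member was among the 50 genes at 1 TPM or more in all 5 marrow libraries given G-CSF and at 0.1 TPM or less in the other 4, or among the 11 genes with the opposite pattern. A difference in genetic background between those mice cannot be told apart from the treatment. Untreated marrow library 1, 1 of only 2 untreated libraries, stood apart: small RNA genes took 40.0% of its TPM, against 7.97 to 15.2% in the other 8 marrow libraries, and the 41 genes summed to 156 TPM in it, against 271 to 527 TPM in the others. Every comparison with untreated marrow rests in part on that library. Among run 1 precursors, small RNA genes took 43.7% of TPM in combined library 1 and 33.9% in combined library 3, against 18.9 to 29.0% in the others. The 41 genes summed to 490 TPM in combined precursor library 1, against 737 to 883 TPM in all other run 1 precursors.

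The mevalonate pathway turns acetyl-CoA into isoprenoid diphosphates. Fdps makes farnesyl diphosphate, which either leads through squalene to cholesterol or serves to anchor small GTPases to membranes, and nitrogen-containing bisphosphonates block it in osteoclasts. When membrane sterol is low, Scap escorts the SREBP precursors from the endoplasmic reticulum, where Insig proteins otherwise hold them, and the cleaved factors switch on genes of sterol and fatty acid synthesis. Oxysterols activate the LXR receptors, which switch on cholesterol efflux genes such as Abca1 and Abcg1 and the gene of Mylip, a ubiquitin ligase that lowers sterol uptake.

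Sequence was examined in the promoter windows that RefSeq (GRCm38.p6) gives for 32 of the 41 genes, 250 bases before to 50 after the transcription start, 41 windows in all. Fdps, Fdft1, Sqle, Stard4, Abcg1, Npc1, Scd1, Scd2 and Fads1 had no window and were not searched. The core of the sterol regulatory element, searched as TCACNCCAC on both strands, was present in 1 of 41 member windows, that of Hmgcs1, and in 1.243% of all 32817 windows. The CCAAT box, bound by NF-Y, was present in 25 of 41 member windows, which is 60.976%, and in 37.389% of all windows. The E-box CACGTG, which reads the same on both strands, was present in 7 of 41 member windows, which is 17.073%, and in 7.149% of all windows. Both overlapping windows of Scap hold the same E-box. Counted by gene, the E-box was present in 6 of the 32 members, which is 18.75%, and in 8.091% of all genes. The DR4 direct repeat that LXR binds was found in 0 member windows and in 0.015% of all windows. No searched motif overlaps another in the windows printed here, and a match is a description of the letters only. Other forms of the sterol element and of the LXR repeat were not searched. A window without a match, that of Abca1 included, may still hold one.

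The windows below belong to Hmgcs1, the 1 searched member with a match to the sterol element core, and to Insig1, a target of SREBP. Also printed are those of Mylip and Abca1, LXR targets whose counts differed most between precursors and marrow among the efflux and uptake genes. Capitals mark the motifs found, with CCAAT printed as ATTGG where it lies on the opposite strand. The Hmgcs1 window is chr13:119690101-119690400 on the plus strand, with the sterol element starting at base −137 from the transcription start. The Insig1 window is chr5:28071162-28071461 on the plus strand, with a CCAAT box at −216 and an E-box at −101. The Mylip window is chr13:45389492-45389791 on the plus strand, with CCAAT boxes at −190, −108 and −67. The Abca1 window is chr4:53159846-53160145 on the minus strand, with an E-box at −147.
Hmgcs1: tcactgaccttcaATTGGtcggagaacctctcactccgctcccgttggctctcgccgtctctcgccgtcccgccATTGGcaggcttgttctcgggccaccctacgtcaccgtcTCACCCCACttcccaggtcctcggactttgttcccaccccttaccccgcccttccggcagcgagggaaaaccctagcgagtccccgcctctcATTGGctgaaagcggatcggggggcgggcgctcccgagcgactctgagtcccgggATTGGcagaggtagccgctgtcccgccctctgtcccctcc
Insig1: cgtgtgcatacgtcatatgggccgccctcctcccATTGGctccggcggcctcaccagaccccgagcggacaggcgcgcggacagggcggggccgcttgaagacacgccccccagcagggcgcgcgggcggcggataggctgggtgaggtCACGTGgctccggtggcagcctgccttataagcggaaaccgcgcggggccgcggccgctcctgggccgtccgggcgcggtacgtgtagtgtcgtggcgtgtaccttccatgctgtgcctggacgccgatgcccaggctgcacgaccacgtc
Mylip: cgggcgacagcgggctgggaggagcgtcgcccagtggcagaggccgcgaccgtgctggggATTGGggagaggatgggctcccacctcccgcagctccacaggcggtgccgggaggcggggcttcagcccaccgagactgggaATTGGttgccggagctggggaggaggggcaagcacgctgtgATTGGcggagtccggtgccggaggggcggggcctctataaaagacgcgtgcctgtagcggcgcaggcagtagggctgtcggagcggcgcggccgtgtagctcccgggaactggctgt
Abca1: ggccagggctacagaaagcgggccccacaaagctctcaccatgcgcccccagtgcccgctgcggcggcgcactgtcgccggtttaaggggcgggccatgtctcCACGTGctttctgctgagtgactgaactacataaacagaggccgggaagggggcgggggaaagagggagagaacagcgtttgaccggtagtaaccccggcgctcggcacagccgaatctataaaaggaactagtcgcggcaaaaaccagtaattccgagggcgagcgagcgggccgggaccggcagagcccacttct

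Per transcript length, Nr1h2, which encodes the broadly expressed receptor LXR-beta, had the highest median level of the 41 genes in both materials. Its median was 104 TPM in run 1 precursors, with a range of 63.0 to 124 TPM, and 43.8 TPM in the 9 marrow libraries, with a range of 24.9 to 90.6 TPM. The annotation also holds Nr1h2-ps, a processed pseudogene copy of Nr1h2, and how reads were shared between them was not tested. Npc2, a lysosomal sterol carrier, came next in both materials, at a median of 85.4 TPM in precursors and 27.6 TPM in marrow. Fdps had a median of 75.3 TPM in precursors (47.2 to 97.8) and 23.6 TPM in marrow (8.57 to 32.5), so the ranges of Nr1h2, Npc2 and Fdps overlapped within each material. The lowest marrow values of Nr1h2 and Fdps are those of untreated library 1, and their lowest precursor values are those of combined library 1. The lowest gene in precursors was Scd1, a stearoyl-CoA desaturase, at a median of 0.0578 TPM. In marrow the lowest was Abca1, the ATP-driven transporter that loads cholesterol onto apolipoprotein A, at 0.558 TPM.

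Run 1 precursors were set against the run 1 whole marrow of the same treatments, to show which of these genes the sorted cells carried at a different level. The precursors were 3 G-CSF, 1 ZA and 1 untreated library, and the marrow was 1 library of each of those treatments; these 3 marrow libraries are also among the 9 of the marrow comparisons. Of the 41 genes, 21 passed an adjusted p of 0.05, 13 higher and 8 lower in precursors, where 41.7% of all 18705 genes tested passed, 19.3% higher and 22.4% lower. Cholesterol storage (Soat1), lysosomal sterol export (Npc1, Npc2), Fdps and the first fatty acid step (Acaca) were higher in precursors, while Scd1, Mylip, Abca1, Nr1h3 and the polyunsaturated desaturases Fads1 and Fads2 were lower. The median log2 fold change was 0.34 over the members and 0.06 over all genes tested.

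Levels from here on are counts-per-million values (CPM) scaled by TMM factors within each fit, so a gene's CPM can differ between fits, and tests are edgeR quasi-likelihood tests adjusted by Benjamini-Hochberg over all genes. Fold changes are log2 ± SE. Some members share exon bases with other genes. Strand is not given in the sources used here. Of the exon bases of Fdft1, 18.31% lie under Ctsb on the opposite strand, so its values are uncertain. Rmc1, also on the opposite strand, shares 4.52% of the exon bases of Npc1. In marrow Rmc1 had up to 42.4 TPM and Npc1 at most 2.65 TPM, so the values of Npc1 are uncertain too. On the same strand, Vps51 shares 12.08% of the exon bases of Tm7sf2. Vps51 had up to 64.5 TPM in precursors and 28.7 TPM in marrow, so the values of Tm7sf2 are likewise uncertain. Gm43738 shares 26.71% of the exon bases of Fdps, also on the same strand, and was listed at no more than 0.442 TPM in precursors and 0.0783 TPM in marrow; reads of the shared bases could be split between the pair.

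Among the mevalonate steps, 3 of 7 genes were higher in precursors and 0 lower. Fdps had 85.8, 95.05 and 91.8 CPM in G-CSF, 94.5 in ZA and 98.2 in untreated precursors, against 57.3 in G-CSF, 57.5 in ZA and 49.3 CPM in untreated marrow. Every precursor library was above every marrow library, by 0.77 ± 0.11 (adjusted p = 0.00137). Mvd, the mevalonate diphosphate decarboxylase, was higher by 0.60 ± 0.14 (adjusted p = 0.0104), with 19.5 to 21.0 CPM in precursors and 12.6 to 14.4 in marrow. Hmgcs1, the synthase that starts the pathway from acetoacetyl-CoA, had 44.5, 45.7 and 45.1 CPM in G-CSF, 46.9 in ZA and 44.5 in untreated precursors, against 38.5 in G-CSF, 27.5 in ZA and 36.6 CPM in untreated marrow. Its difference of 0.39 ± 0.13 was just past the threshold (adjusted p = 0.0478) and was lost on leaving out any 1 library other than the G-CSF marrow one, down to 0.25 (adjusted p = 0.157) without the ZA marrow library. Idi1, the isomerase of isopentenyl diphosphate, had 35.3, 30.4 and 43.5 CPM in G-CSF, 37.7 in ZA and 37.3 in untreated precursors, against 55.5 in G-CSF, 37.0 in ZA and 35.2 CPM in untreated marrow, and the materials overlapped.

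Of the 11 squalene and sterol genes, 3 were higher and 1 lower in precursors. Ebp, a sterol isomerase, had 52.6 to 58.8 CPM in precursors and 32.1 to 33.9 in marrow, a difference of 0.73 ± 0.11 (adjusted p = 0.00144). Tm7sf2, a sterol reductase, was higher by 0.97 ± 0.22 (adjusted p = 0.0099), and Sc5d, a desaturase late in the pathway, by 0.58 ± 0.16 (adjusted p = 0.0211). The call for Sc5d was lost without the G-CSF marrow library (0.46), the ZA marrow library (0.60) or the ZA precursor library (0.61). Fdft1, the squalene synthase at the branch towards sterols, fell by 0.88 ± 0.13 (adjusted p = 0.00129), with 19.3 to 21.3 CPM in precursors and 33.4 to 42.4 in marrow. Sqle, the squalene epoxidase, had 19.4, 22.6 and 18.5 CPM in G-CSF, 22.8 in ZA and 20.9 in untreated precursors, against 30.3 in G-CSF, 21.3 in ZA and 18.5 CPM in untreated marrow, and did not pass.

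Of the 5 SREBP regulators, 2 were higher in precursors. Insig1, whose promoter window is printed above, had 41.6, 47.4 and 44.9 CPM in G-CSF, 51.1 in ZA and 37.9 in untreated precursors, against 27.4 in G-CSF, 19.0 in ZA and 24.9 CPM in untreated marrow. The ranges did not overlap, and the difference was 0.87 ± 0.17 (adjusted p = 0.00519). Srebf1, whose product chiefly drives fatty acid genes, had 93.2, 95.4 and 70.3 CPM in G-CSF, 107 in ZA and 79.6 in untreated precursors, against 53.5 in G-CSF, 57.1 in ZA and 54.9 CPM in untreated marrow. It was higher by 0.71 ± 0.15 (adjusted p = 0.00671). Srebf2, whose product chiefly drives sterol genes, had 119, 117 and 105 CPM in G-CSF, 111 in ZA and 119 in untreated precursors, against 109 in G-CSF, 136 in ZA and 137 CPM in untreated marrow. Its difference was −0.11 ± 0.11 (adjusted p = 0.457), and on the TPM scale Srebf1 made up 74.7 to 81.7% of the pair in the 8 run 1 precursor libraries and 65.0 to 69.5% in the 3 run 1 marrow libraries.

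Of the 7 transport, efflux and storage genes, 3 were higher and 2 lower. Soat1, which esterifies cholesterol for storage, had 192 to 227 CPM in precursors and 51.1 to 68.4 in marrow, a difference of 1.76 ± 0.11 (adjusted p = 2.31e-05). Npc1 and Npc2, the pair that passes cholesterol out of lysosomes, were higher by 1.11 ± 0.26 (adjusted p = 0.0111) and 0.82 ± 0.10 (adjusted p = 0.000605). Mylip fell by 2.33 ± 0.15 (adjusted p = 3e-05), with 13.1, 10.4 and 11.3 CPM in G-CSF, 16.3 in ZA and 12.2 in untreated precursors, against 62.6 in G-CSF, 61.8 in ZA and 73.0 CPM in untreated marrow. Abca1 had 3.71, 7.06 and 2.23 CPM in G-CSF, 4.05 in ZA and 5.08 in untreated precursors, against 12.3 in G-CSF, 10.7 in ZA and 36.8 CPM in untreated marrow. It fell by 1.87 ± 0.44 (adjusted p = 0.0116), and the untreated marrow library stood well above the other 2. Abcg1, a half-transporter that passes cholesterol to lipoproteins, had 16.8, 26.4 and 30.8 CPM in G-CSF, 27.96 in ZA and 26.4 in untreated precursors, against 24.9 in G-CSF, 26.3 in ZA and 37.6 CPM in untreated marrow, and the materials overlapped.

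**Figure D1:**
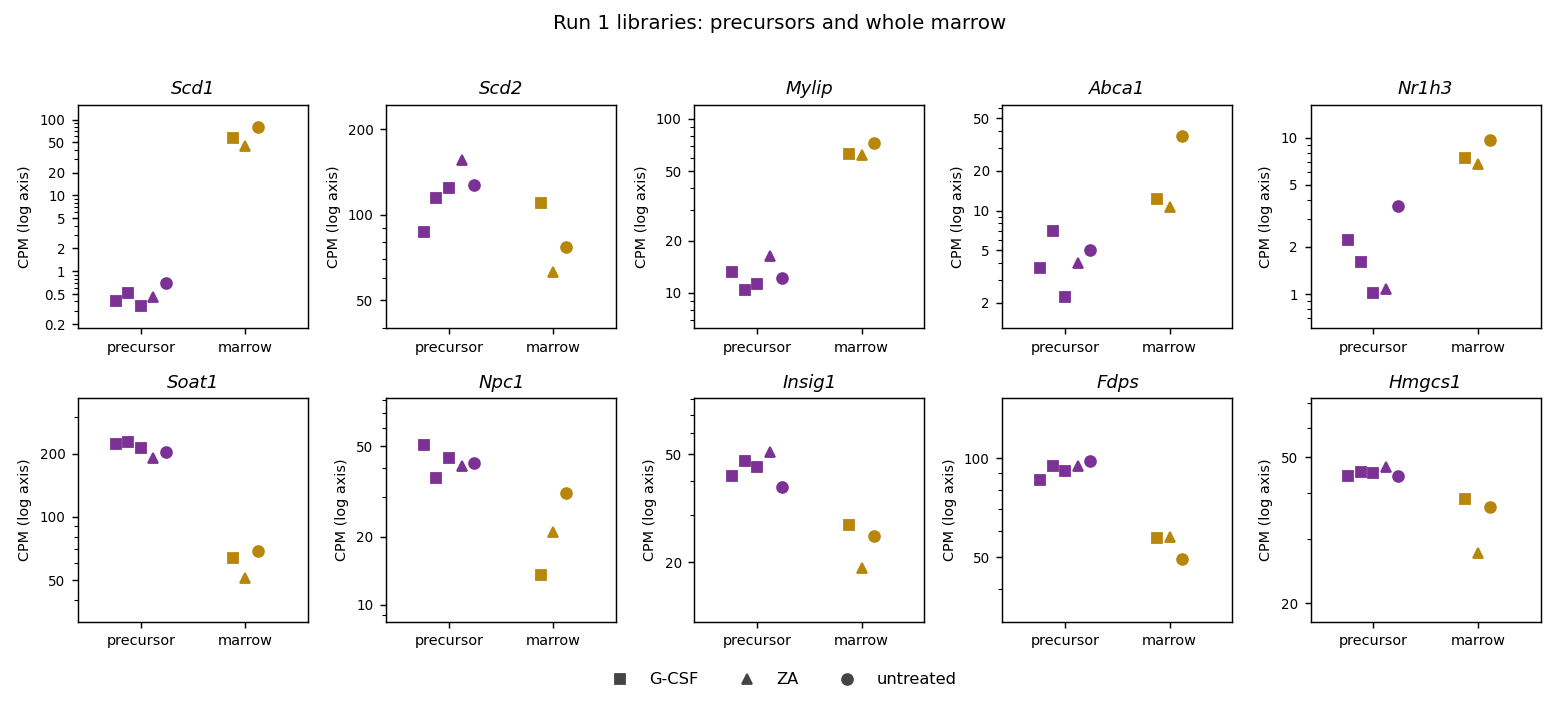
Levels in CPM on a log axis for 10 of the genes, 1 point per run 1 library, in precursors (left, purple) and whole marrow (right, gold); squares are G-CSF, triangles ZA and circles untreated libraries. Scd1 lies at 0.35 to 0.694 CPM in precursors and at 45.1 to 79.7 CPM in marrow, while Scd2 overlaps between the materials.

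Of the 9 fatty acid genes, 2 were higher and 4 lower. Scd1 had 0.408, 0.522 and 0.35 CPM in G-CSF, 0.46 in ZA and 0.694 in untreated precursors, against 56.2 in G-CSF, 45.1 in ZA and 79.7 CPM in untreated marrow. It fell by 6.86 ± 0.18 (adjusted p = 1.14e-06), and Scd1 was lower in all 5 precursor libraries than in all 3 marrow libraries. Its paralog Scd2 had 87.3, 115 and 125 CPM in G-CSF, 156 in ZA and 127 in untreated precursors, against 110 in G-CSF, 62.7 in ZA and 76.8 CPM in untreated marrow, with a difference of 0.55 ± 0.24 (adjusted p = 0.111). Scd2 thus made up 99.4 to 99.7% of the summed TPM of the pair in the 8 run 1 precursor libraries and 45.7 to 63.0% in the 3 run 1 marrow libraries.

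Acaca, the carboxylase that makes malonyl-CoA, was higher in precursors by 1.34 ± 0.16 (adjusted p = 0.000466), and the elongase Elovl6 by 1.28 ± 0.16 (adjusted p = 0.000718). Fads1 and Fads2, the front-end desaturases of polyunsaturated fatty acids, fell by 1.40 ± 0.16 (adjusted p = 0.000439) and 1.32 ± 0.23 (adjusted p = 0.0032). Acss2, which makes acetyl-CoA from acetate, fell by 1.22 ± 0.18 (adjusted p = 0.00155). Fasn, the fatty acid synthase, had 60.9, 73.8 and 72.7 CPM in G-CSF, 108 in ZA and 88.4 in untreated precursors, against 63.1 in G-CSF, 75.9 in ZA and 54.5 CPM in untreated marrow, and its difference of 0.39 did not pass (adjusted p = 0.0576). Of the LXR receptors, Nr1h3, which encodes the macrophage and liver form LXR-alpha, fell by 2.09 ± 0.36 (adjusted p = 0.00303), with 1.02 to 3.65 CPM in precursors and 6.78 to 9.66 in marrow. Nr1h2 differed by 0.66 ± 0.27 and did not pass (adjusted p = 0.0895).

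**Figure D2:**
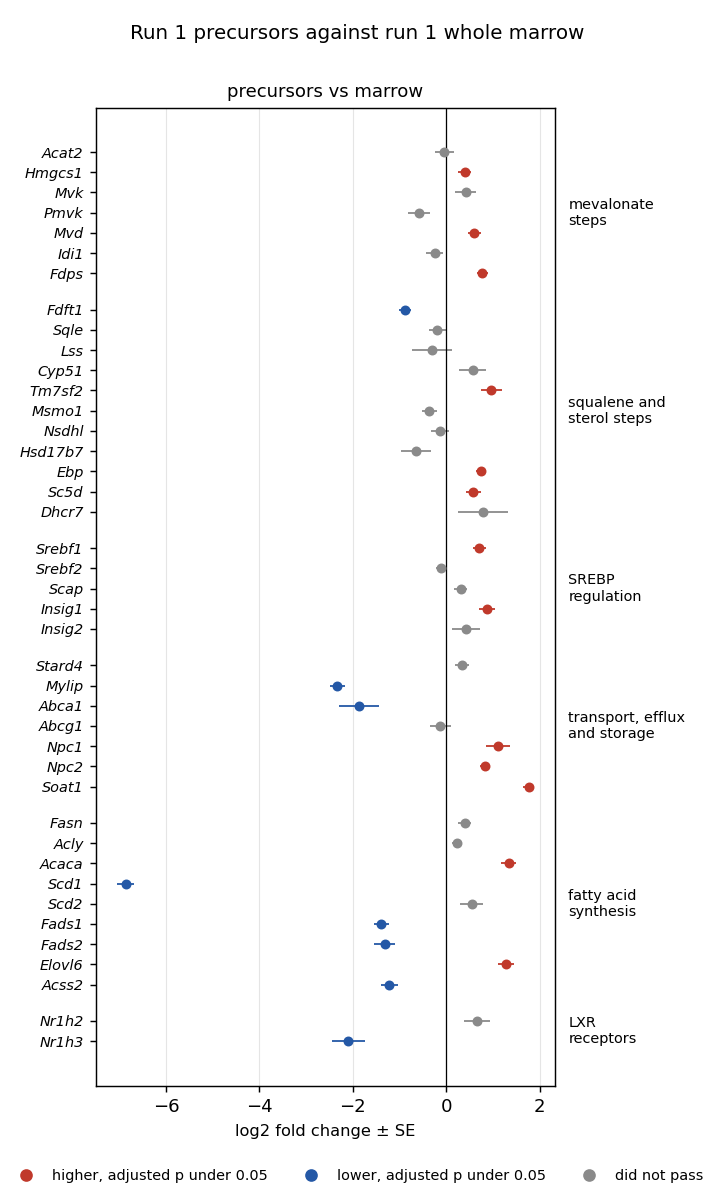
Log2 fold change ± SE of each of the 41 genes in run 1 precursors against run 1 whole marrow, grouped by role from the mevalonate steps at the top to the LXR receptors at the bottom; red and blue mark genes higher and lower at an adjusted p under 0.05. Scd1 at −6.86 lies far below the others, and Soat1 at 1.76 is the highest.

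Of 23 further lipid genes listed for comparison, 22 could be tested and 10 were higher and 2 lower in precursors. The sterol 27-hydroxylase Cyp27a1 differed by 2.94 and the SREBP site-2 protease gene Mbtps2 by 1.90, both higher, and Lpcat3, a phospholipid-remodelling LXR target, differed by −1.51. Whole marrow also contained other cells. Of the marker lists, 10 of 10 mature neutrophil genes (median −6.45), 9 of 9 erythroid genes (median −8.34) and 6 of 6 stromal and adipocyte genes (median −3.63) were lower in precursors, and their part in the members' differences was not tested. In bulk RNA, fewer cells of a type and less RNA per cell cannot be told apart. On log2(TPM + 1), 30 members and 60.7% of all genes passed, with Fdft1, Abca1, Fads1, Fads2 and Acss2 not among them, and in the run 2 libraries as labelled 0 of the 41 genes passed.

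In whole marrow, G-CSF alone was compared with no treatment to show what the cytokine did to the pathway. Of the 41 genes, 4 passed, where 11.8% of all 14737 genes tested passed, 4.93% higher and 6.91% lower. Sqle and Fads1 rose, and Abca1 and Npc1 fell. Of the mevalonate genes, 7 of 7 had a positive log2 fold change with 0 past the threshold, at a median of 0.29, and of the SREBP regulators 5 of 5 had a negative one with 0 past it, at a median of −0.25. The median was 0.04 over the members and 0.01 over all genes.

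Sqle had 22.7, 24.0 and 20.4 CPM in G-CSF marrow, against 11.5 and 14.6 CPM in untreated marrow. All 3 treated libraries were above both untreated ones, by 0.77 ± 0.20 (adjusted p = 0.0337). Fads1, the delta-5 desaturase, had 41.9, 45.0 and 48.3 CPM in G-CSF marrow, against 29.7 and 29.9 CPM in untreated marrow, again without overlap and with a difference of 0.60 ± 0.15 (adjusted p = 0.0343). Abca1 had 8.38, 10.02 and 13.5 CPM in G-CSF marrow, against 18.1 and 29.8 CPM in untreated marrow, and fell by 1.18 ± 0.29 (adjusted p = 0.0298). Npc1 had 10.1, 10.9 and 13.3 CPM in G-CSF marrow, against 22.0 and 25.3 CPM in untreated marrow, and fell by 1.05 ± 0.27 (adjusted p = 0.0384).

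Fdps itself had 49.8, 46.8 and 46.1 CPM in G-CSF marrow, against 37.6 and 40.2 CPM in untreated marrow, a difference of 0.29 ± 0.18 that did not pass (adjusted p = 0.310). Idi1 had 41.6, 48.7 and 31.0 CPM in G-CSF marrow, against 26.9 and 30.9 CPM in untreated marrow (0.48 ± 0.21, adjusted p = 0.155). Hmgcs1 had 27.3, 31.6 and 28.2 CPM in G-CSF marrow, against 24.2 and 29.9 CPM in untreated marrow, where the groups overlapped. Fasn was 45.7, 35.1 and 77.3 CPM in G-CSF marrow, against 22.6 and 30.3 CPM in untreated marrow (0.99 ± 0.33, adjusted p = 0.0855). Scd2 was 72.5, 88.9 and 74.1 CPM in G-CSF marrow, against 39.9 and 62.0 CPM in untreated marrow (0.62 ± 0.22, adjusted p = 0.0954). For both genes every G-CSF library was above every untreated one, but neither passed. G-CSF library 3, with the highest Fasn of the 9 libraries, also had the highest levels of the adipocyte markers Cfd, at 27.1 CPM, and Plin1, at 2.36 CPM. Plin1 was nearly as high in combined library 3, at 2.28 CPM. The adipocyte markers Adipoq and Fabp4 were instead highest in ZA library 3, at 30.7 and 48.0 CPM. They had 15.1 and 45.1 CPM in G-CSF library 3, and Fasn had 31.0 CPM in ZA library 3. In the other 2 G-CSF libraries Cfd had 7.03 and 6.84 CPM and Plin1 0.482 and 0.753 CPM, and the part of adipocytes in the Fasn values was not tested.

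Of the other genes, some overlapped and some did not. Scd1 had 42.7, 45.6 and 73.0 CPM in G-CSF marrow, against 45.5 and 64.4 CPM in untreated marrow, with overlap and its highest value in the same G-CSF library 3. Abcg1 had 21.3, 19.9 and 22.5 CPM in G-CSF marrow, against 24.2 and 30.1 CPM in untreated marrow (−0.36 ± 0.18, adjusted p = 0.213), without overlap. The sterol sensors gave the more negative values, also without overlap and without passing. Insig2, the second ER retention protein, had 9.85 to 11.4 CPM in G-CSF marrow and 24.0 to 30.8 CPM in untreated marrow, at −1.38 ± 0.43 (adjusted p = 0.0699), and Scap had 40.3 to 46.9 CPM and 67.4 to 70.0 CPM in those groups, at −0.64 ± 0.20 (adjusted p = 0.0664). Insig1 had 18.6, 23.1 and 16.5 CPM in G-CSF marrow, against 17.9 and 21.1 CPM in untreated marrow. Srebf1 had 41.6, 52.5 and 36.9 CPM in G-CSF marrow, against 50.5 and 53.8 CPM in untreated marrow, and Srebf2 had 90.1, 84.6 and 93.2 CPM, against 86.0 and 106 CPM. The groups overlapped for Insig1, Srebf1 and Srebf2.

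Among the 22 further lipid genes tested, 2 rose and 1 fell with G-CSF. Aacs, the acetoacetyl-CoA synthetase that feeds ketone bodies into the pathway, had 66.8, 67.3 and 58.8 CPM in G-CSF marrow, against 21.1 and 17.2 CPM in untreated marrow, a rise of 1.75 ± 0.21 (adjusted p = 0.00126). Markers of other cells moved in the same libraries: 4 of 5 primary granule genes rose (median 0.81), 5 of 9 erythroid genes and 5 of 10 monocyte and macrophage genes fell (medians −0.71 and −0.59). Of 4 skeletal muscle genes, 4 rose, with 11.8 to 16.1 summed TPM in G-CSF marrow and 0.571 to 0.595 TPM in untreated marrow. Megakaryocyte genes summed to 888 to 1102 TPM in G-CSF marrow and 108 to 111 TPM in untreated marrow (1 of 4 rose, median 2.13). Of 5 T and NK genes 3 rose and 2 fell, and of 6 stromal and adipocyte genes 0 passed and 6 had positive values (median 1.19), with 88.4 to 158 summed TPM in G-CSF marrow and 19.3 to 31.6 TPM in untreated marrow. The part of all these cells in the 4 calls was not tested. None of the 4 calls was kept in every fit that left out 1 library. Without untreated library 1 Abca1 alone kept its call (−1.48, adjusted p = 0.0211), while Sqle (0.63, adjusted p = 0.125), Fads1 (0.60, adjusted p = 0.0871) and Npc1 (−1.14, adjusted p = 0.0717) lost theirs. All 4 were lost without untreated library 2, G-CSF library 1 or G-CSF library 2. Abca1 and Sqle passed without G-CSF library 3, Sqle, Abca1 and Fads1 without either ZA library, and Abca1 and Npc1, with Scap and Insig2 added, without either combined library. On log2(TPM + 1) Abca1 (−0.18, adjusted p = 0.565) and Npc1 (−0.14) did not pass; 8 members and 21.1% of all genes did, with the median of all genes at 0.52.

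ZA alone, the Fdps inhibitor, was compared with no treatment. Of the 41 genes 0 passed the edgeR test, where 0.0339% of all genes did (0.00679% higher and 0.0271% lower), and 3 members had an unadjusted p under 0.05, as had 9.47% of all genes. DESeq2 called 1 member, Abca1, and 139 genes in all. Positive values numbered 18 and negative ones 23, at a median of −0.10 over the members and 0.01 over all genes.

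Fdps had 48.7 and 38.2 CPM in ZA marrow, against 37.6 and 40.2 CPM in untreated marrow. The groups overlapped, and the difference was 0.16 ± 0.19 (adjusted p = 0.820) with a 95% interval of −0.34 to 0.65. Abca1 had 8.98 and 7.82 CPM in ZA marrow, against 18.1 and 29.8 CPM in untreated marrow, which is −1.52 ± 0.33 (adjusted p = 0.243). Both ZA libraries were below both untreated ones. Dhcr7, the last reductase before cholesterol, had 4.28 and 20.7 CPM in ZA marrow, against 42.8 and 42.5 CPM in untreated marrow (−1.75 ± 0.70, adjusted p = 0.505). Lss, the lanosterol synthase, had 2.07 and 6.57 CPM in ZA marrow, against 8.38 and 10.3 CPM in untreated marrow (−1.10 ± 0.49, adjusted p = 0.533). The ZA libraries differed from each other 4.84-fold for Dhcr7 and 3.17-fold for Lss; without ZA library 2 the values were −1.04 and −0.51, and without ZA library 3 they were −3.31 and −2.17. Scap gave −0.50 ± 0.22 (adjusted p = 0.526).

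Values of the other genes follow. Hmgcs1 had 23.3 and 28.9 CPM in ZA marrow, against 24.2 and 29.9 CPM in untreated marrow. Idi1 had 33.8 and 36.8 CPM in ZA marrow, against 26.9 and 30.9 CPM in untreated marrow. Sqle had 17.5 and 16.1 CPM in ZA marrow, against 11.5 and 14.6 CPM in untreated marrow. For Idi1 and Sqle the ZA libraries were the higher ones, but neither passed. Npc1 had 17.7 and 16.9 CPM in ZA marrow, against 22.0 and 25.3 CPM in untreated marrow, and Abcg1 had 21.8 and 24.1 CPM, against 24.2 and 30.1 CPM. Fads1 had 39.5 and 35.1 CPM in ZA marrow, against 29.7 and 29.9 CPM in untreated marrow, and Fasn had 43.8 and 31.0 CPM, against 22.6 and 30.3 CPM. These genes, too, did not pass.

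The SREBP regulators did not pass either. Srebf1 had 58.0 and 58.1 CPM in ZA marrow, against 50.5 and 53.8 CPM in untreated marrow, Srebf2 had 109 and 111 CPM, against 86.0 and 106 CPM, and Insig1 had 16.6 and 22.1 CPM, against 17.9 and 21.1 CPM. Scd1 had 38.0 and 49.5 CPM in ZA marrow, against 45.5 and 64.4 CPM in untreated marrow, and Scd2 had 52.5 and 65.5 CPM, against 39.9 and 62.0 CPM. Of the further lipid genes 1 of 22 rose with ZA, again Aacs, with 76.5 and 90.5 CPM in ZA marrow, against 21.1 and 17.2 CPM in untreated marrow (2.13 ± 0.23, adjusted p = 0.0408). The ZA and G-CSF comparisons share the 2 untreated libraries.

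**Figure D3:**
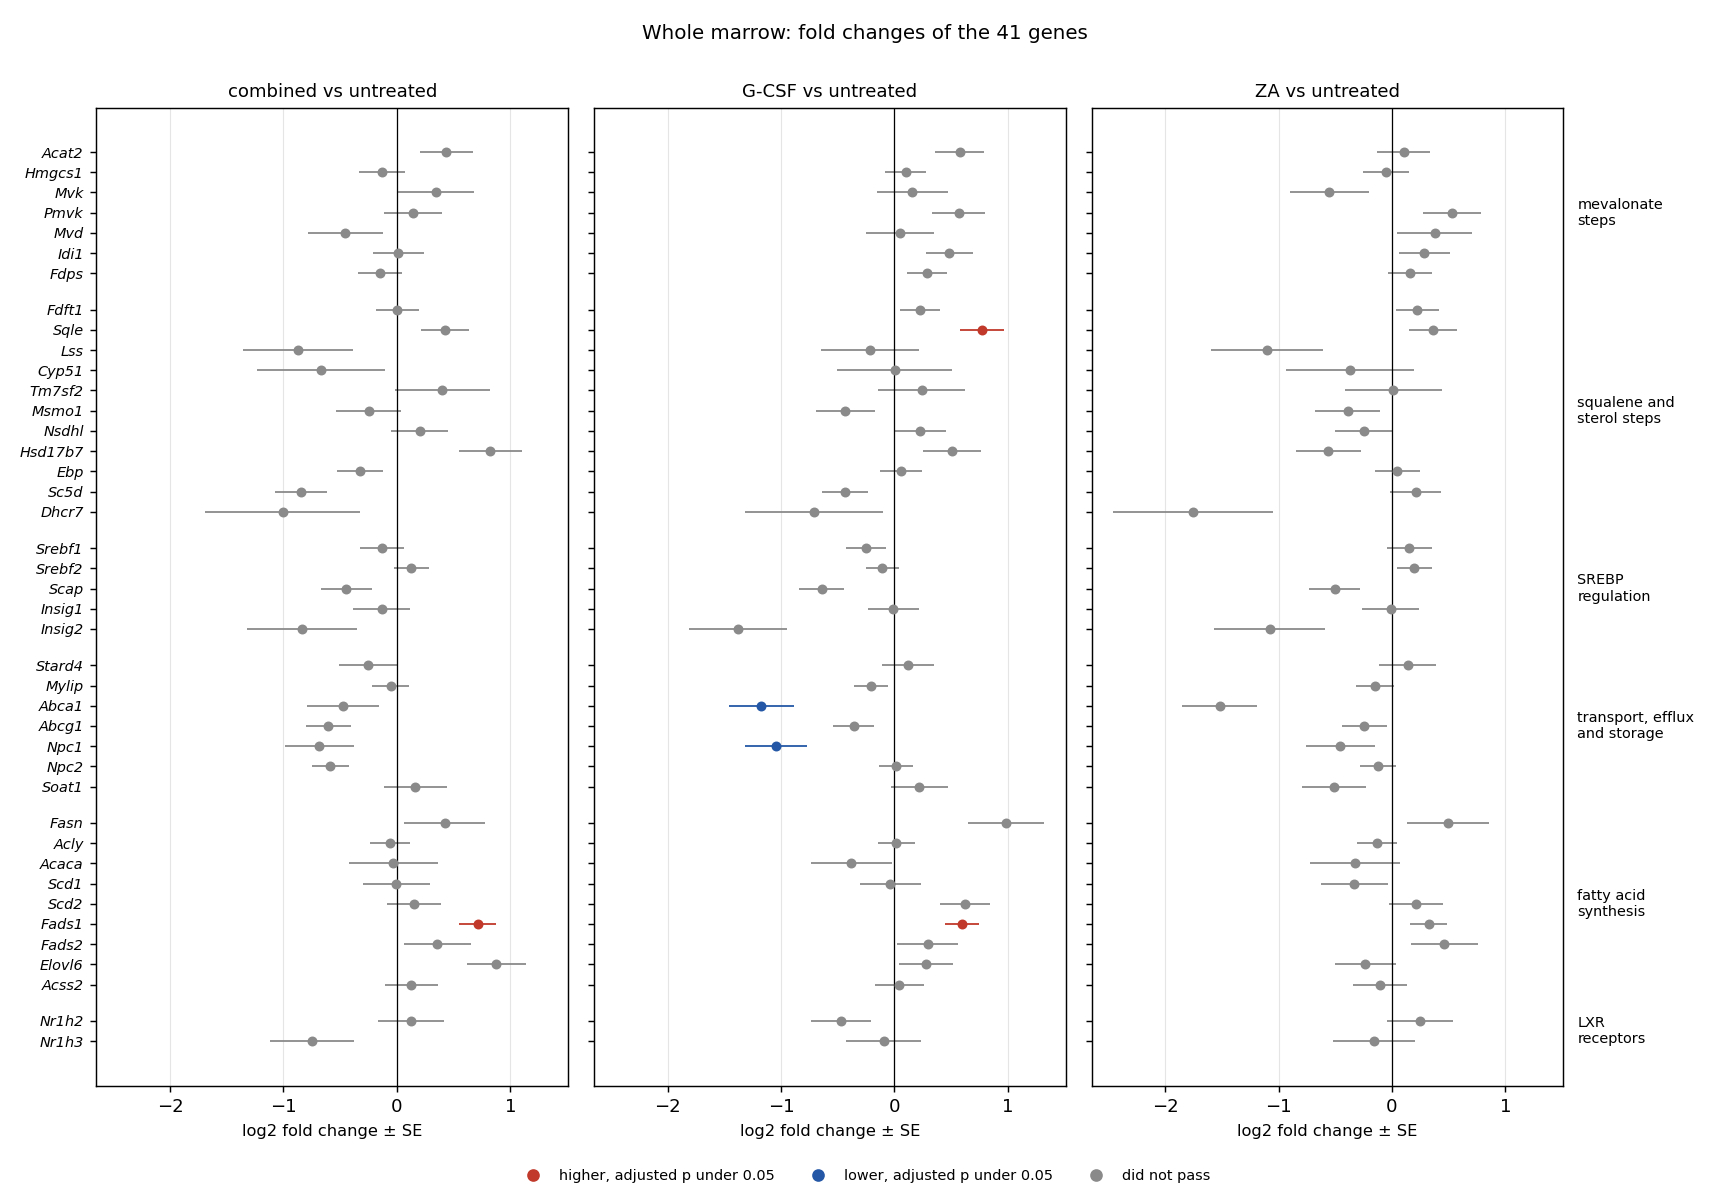
Log2 fold change ± SE of each of the 41 genes in whole marrow, for the combined, G-CSF and ZA groups, each against untreated marrow; red and blue mark genes higher and lower at an adjusted p under 0.05, grey those that did not pass. The 3 panels share their untreated libraries; colours appear in the combined panel at Fads1 and in the G-CSF panel at Sqle, Fads1, Abca1 and Npc1.

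The combined treatment was compared with untreated marrow and with each agent alone. Against untreated marrow 1 of 41 genes passed, where 7.72% of all genes did, 3.17% higher and 4.55% lower. Fads1 had 49.4 and 48.2 CPM in combined marrow, against 29.7 and 29.9 CPM in untreated marrow, and rose by 0.71 ± 0.16 (adjusted p = 0.0316). Of the transport and efflux genes 6 of 7 had negative values with 0 past the threshold, at a median of −0.48, where the median of all genes was −0.01. Npc2 at −0.59 ± 0.16 (adjusted p = 0.0587), Sc5d at −0.84 ± 0.23 (adjusted p = 0.0568) and Elovl6 at 0.88 ± 0.26 (adjusted p = 0.0751) lay closest to the threshold. On log2(TPM + 1) 15 members and 41.5% of all genes passed, with the median of all genes at 0.79. Fdps had 30.9 and 39.5 CPM in combined marrow, against 37.6 and 40.2 CPM in untreated marrow (−0.15 ± 0.19, adjusted p = 0.680), and the groups overlapped. Of the further lipid genes Aacs rose by 1.504 ± 0.23 and Lipa, the lysosomal acid lipase that releases cholesterol from its esters, fell by 0.76.

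Against G-CSF alone, 0 of 41 genes passed, where 0.00679% of all genes did; 6 members and 10.4% of all genes had an unadjusted p under 0.05. DESeq2 called 1 member, Npc2, and 204 genes in all. Npc2 had 146 and 135 CPM in combined marrow, against 230, 219 and 188 CPM in G-CSF marrow, with no overlap (−0.60 ± 0.15, adjusted p = 0.269). Of the mevalonate genes, 6 of 7 had negative values, at a median of −0.42, where 48.6% of all genes were positive, at a median of −0.01. Fdps had 30.9 and 39.5 CPM in combined marrow, against 49.8, 46.8 and 46.1 CPM in G-CSF marrow, which is −0.44 ± 0.18 (adjusted p = 0.444), and both combined libraries were below all 3 G-CSF libraries. Idi1 had 29.0 and 29.3 CPM in combined marrow, against 41.6, 48.7 and 31.0 CPM in G-CSF marrow, and Hmgcs1 had 23.5 and 26.1 CPM, against 27.3, 31.6 and 28.2 CPM. The groups did not overlap for either gene, and neither passed. Elovl6 gave 0.60 ± 0.23 (adjusted p = 0.426) and Abca1 0.70 ± 0.29 (adjusted p = 0.448).

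**Figure D4:**
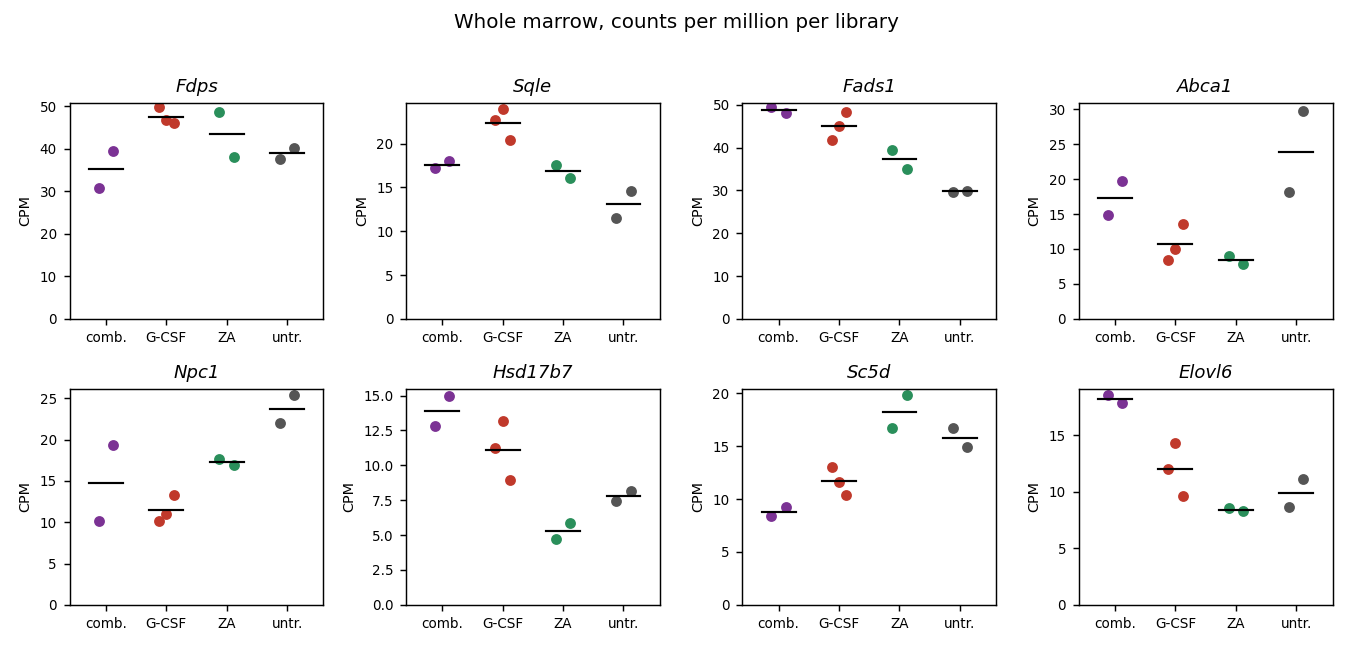
Levels in CPM of 8 genes in the 9 whole marrow libraries, 1 point per library with the group mean as a bar, in the order combined, G-CSF, ZA and untreated. Fads1 lies at 29.7 and 29.9 CPM in untreated marrow, under all 7 treated libraries, and Abca1 at 18.1 and 29.8 CPM, with 14.8 and 19.7 CPM in the combined group.

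Against ZA alone, 3 of 41 genes passed, where 4.33% of all genes did, 1.87% higher and 2.46% lower. Hsd17b7, a ketosteroid reductase of sterol synthesis, had 12.8 and 14.95 CPM in combined marrow, against 4.70 and 5.89 CPM in ZA marrow, and rose by 1.39 ± 0.28 (adjusted p = 0.0251). Its level was 11.3, 13.2 and 8.98 CPM in G-CSF marrow and 7.47 and 8.18 CPM in untreated marrow. Sc5d, the sterol desaturase, fell by 1.05 ± 0.23 (adjusted p = 0.0337), with 8.39 and 9.24 CPM in combined marrow, against 16.7 and 19.8 CPM in ZA marrow. It had 13.01, 11.6 and 10.4 CPM in G-CSF marrow and 16.8 and 14.9 CPM in untreated marrow, so the 2 groups given G-CSF were the lower ones. Elovl6, which lengthens palmitate, rose by 1.11 ± 0.26 (adjusted p = 0.0456), with 18.5 and 17.8 CPM in combined marrow, against 8.56 and 8.27 CPM in ZA marrow. It had 12.0, 14.3 and 9.65 CPM in G-CSF marrow and 8.60 and 11.1 CPM in untreated marrow, and the combined libraries were above all 7 others.

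The remaining values of the combined group were these. Sqle had 17.2 and 18.0 CPM, Abca1 14.8 and 19.7 CPM, Npc1 10.2 and 19.4 CPM, Abcg1 18.8 and 16.9 CPM and Insig1 16.1 and 19.5 CPM. Srebf1 had 45.4 and 50.0 CPM, Srebf2 106 and 104 CPM, Fasn 33.3 and 37.7 CPM, Scd1 50.4 and 59.5 CPM and Scd2 51.8 and 61.7 CPM. None of these 10 genes passed in any comparison of the combined group by the edgeR test. In the same libraries 7 of 9 erythroid genes fell and 4 of 4 skeletal muscle genes rose against untreated marrow, with 75.3 to 153 summed muscle TPM in combined marrow and 0.571 to 0.595 TPM in untreated marrow, and 5 of 9 erythroid genes fell and 4 of 4 muscle genes rose against ZA marrow. Of the monocyte and macrophage genes 5 of 10 fell against untreated marrow and 1 of 10 against ZA marrow, and of the mature neutrophil genes 3 of 10 fell in either comparison. Their part in the calls for Fads1, Hsd17b7, Sc5d and Elovl6 was not tested. The Fads1 call was lost without any 1 of the combined, untreated or G-CSF libraries other than G-CSF library 3, and the 3 calls against ZA fell to 0 without any 1 combined or ZA library and to 1, Hsd17b7, without G-CSF library 1 or 2.

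The interaction term, which asks whether the combined effect differs from the sum of the 2 single effects, passed for 0 of 41 genes, where 0.00679% of all genes passed, and 9 members and 11.8% of all genes (1738) had an unadjusted p under 0.05. DESeq2 called 1 member, Abca1, and 257 genes in all. Abca1 gave the smallest p, with 2.22 ± 0.43 (adjusted p = 0.136), and was lower in both single-agent groups than in combined and untreated marrow. Pmvk, the phosphomevalonate kinase, gave −0.95 ± 0.34 (adjusted p = 0.360), Idi1 −0.76 ± 0.30 (adjusted p = 0.382), Sqle −0.71 ± 0.28 (adjusted p = 0.383) and Fdps −0.59 ± 0.26 (adjusted p = 0.416). Of the mevalonate genes 6 of 7 were negative, at a median of −0.59, where 46.1% of all genes were positive, at a median of −0.06. The interaction contains the difference of combined and G-CSF marrow, so this count is not separate from the one given for that comparison.

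In run 1 precursors the treatments were compared within the sorted cells, with G-CSF given or not, averaged over ZA. Of the 41 genes 0 passed, where 0% of all 18779 genes passed the edgeR test; 682 genes and 1 member had an unadjusted p under 0.05, and DESeq2 called 30 genes and 0 members. The ZA and untreated groups are 1 library each, assumed to vary like the others. Fdps had 109, 137 and 108 CPM in combined, 99.4, 110 and 106 in G-CSF, 110 in ZA and 114 CPM in untreated precursors. Its difference with G-CSF was −0.00054 ± 0.11, and the groups overlapped. Fasn had 107, 98.2 and 107 CPM in combined and 70.6, 85.6 and 84.2 in G-CSF precursors, against 125 in ZA and 102 CPM in untreated precursors, a difference of −0.31 ± 0.09 that did not pass (adjusted p = 1.00). Pmvk gave −0.31 ± 0.15, Soat1 0.15 ± 0.07 and Mvk, the mevalonate kinase, 0.37 ± 0.20.

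Combined treatment against G-CSF alone in precursors called 0 of 41 genes, where 0% of all genes passed; 1306 genes and 3 members had an unadjusted p under 0.05, and DESeq2 called 91 genes and, of the members, Acaca only. The carboxylase gene Acaca had 84.5, 95.1 and 84.6 CPM in combined precursors, against 71.8, 59.9 and 53.8 CPM in G-CSF precursors, a difference of 0.51 ± 0.12. Fasn differed by 0.38 ± 0.10. Lss had 11.9, 12.3 and 20.6 CPM in combined precursors, against 8.31, 9.53 and 7.29 CPM in G-CSF precursors, a difference of 0.83 ± 0.24. The groups did not overlap for these 3 genes, and each had an adjusted p of 0.687. Npc2 gave −0.20 ± 0.09 (adjusted p = 0.712) and Fdps 0.17 ± 0.11 (adjusted p = 0.775). Of 9 erythroid markers 9 had positive values in this comparison (median 2.43), with 840 to 10030 summed TPM in combined and 341 to 1432 TPM in G-CSF precursors, and their part was not tested.

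**Figure D5:**
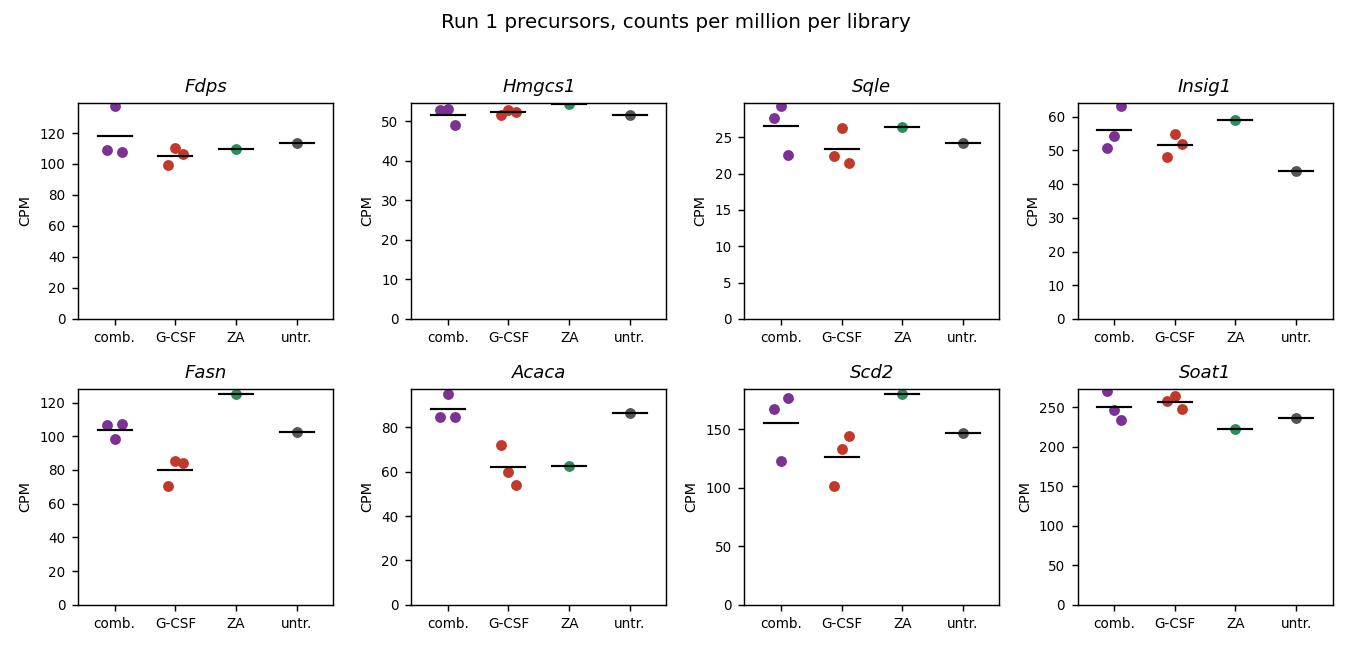
Levels in CPM of 8 genes in the 8 run 1 precursor libraries, 1 point per library with the group mean as a bar, in the order combined, G-CSF, ZA and untreated; ZA and untreated are 1 library each. Acaca lies at 84.5 to 95.1 CPM in combined and at 53.8 to 71.8 CPM in G-CSF precursors.

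Dhcr7 and Npc1 differed widely within the combined precursors, with 16.99, 48.2 and 59.8 CPM and with 50.3, 54.7 and 110 CPM. In G-CSF precursors Dhcr7 had 23.5, 36.2 and 37.9 CPM and Npc1 58.9, 42.2 and 51.5 CPM, and both overlapped between the groups. Hmgcs1 had 52.7, 53.0 and 49.1 CPM in combined, 51.5, 52.9 and 52.3 in G-CSF, 54.3 in ZA and 51.5 CPM in untreated precursors. Idi1 had 32.5, 44.5 and 42.9 CPM in combined, 40.9, 35.3 and 50.4 in G-CSF, 43.7 in ZA and 43.2 CPM in untreated precursors. Sqle had 27.6, 29.3 and 22.6 CPM in combined, 22.4, 26.3 and 21.5 in G-CSF, 26.5 in ZA and 24.2 CPM in untreated precursors. For Hmgcs1, Idi1 and Sqle the groups overlapped, and the ZA library lay close to the untreated one.

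The SREBP regulators overlapped too. Insig1 had 50.8, 54.2 and 63.1 CPM in combined, 48.2, 55.0 and 52.1 in G-CSF, 59.2 in ZA and 43.9 CPM in untreated precursors. Srebf1 had 95.7, 96.0 and 111 CPM in combined, 108, 111 and 81.4 in G-CSF, 124 in ZA and 92.2 CPM in untreated precursors. Srebf2 had 140, 151 and 129 CPM in combined, 138, 136 and 122 in G-CSF, 129 in ZA and 138 CPM in untreated precursors. The combined and G-CSF libraries overlapped for all 3.

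Efflux and desaturase genes also overlapped between treatments. Abca1 had 4.72, 5.85 and 5.61 CPM in combined, 4.30, 8.18 and 2.58 in G-CSF, 4.69 in ZA and 5.88 CPM in untreated precursors. Abcg1 had 37.4, 17.1 and 32.0 CPM in combined, 19.4, 30.6 and 35.7 in G-CSF, 32.4 in ZA and 30.6 CPM in untreated precursors. Scd1 stayed under 1 CPM in all 8 libraries, with 0.369, 0.532 and 0.832 CPM in combined, 0.472, 0.605 and 0.405 in G-CSF, 0.534 in ZA and 0.804 CPM in untreated precursors. Scd2, the form these cells carried, had 167, 123 and 177 CPM in combined, 101, 133 and 144 in G-CSF, 180 in ZA and 147 CPM in untreated precursors.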

How the data were processed

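Per the submitters' processing notes, the authors quantified reads with Salmon (version not given in the sources used here) on mm10 and used DESeq2 1.16.1; the labels' protocols name an NEB Ultra RNA library kit. The deposited tables hold the authors' estimated counts per gene, not normalised, and TPM deposited by the authors, scaled to transcript length and to the library's total. The annotation release and strand are not given in the sources used here. GENCODE vM21 symbols matched 99.1% of the gene identifiers in each table. The 41 members and all lists were chosen with earlier results of these data known.

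Estimated counts were rounded, filtered with filterByExpr (minimum count 10, minimum total 15), scaled by TMM, and tested with edgeR's quasi-likelihood F test in R 4.3.3 (edgeR 4.0.16, limma 3.58.1) with Benjamini-Hochberg adjustment over all genes and a threshold of 0.05. Marrow used 9 libraries in 1 model, precursors 8, and the comparison of materials 8 with treatment as a covariate. CPM are comparable within a fit only. The SE is the fold change divided by the square root of F. Full statistics are given for members past the threshold, or, where none passed, for the 4 of smallest p and Fdps. Alternatives were DESeq2 1.42.0, limma on log2(TPM + 1) and log2(TPM + 0.1), no filter, other sets of libraries, and each library left out. Methods were tested on simulated data. The number of libraries, and depths from 6.24 to 33.2 M estimated counts, limit the precision; values below 1 CPM rest on few counts.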

Additional observations from a re-analysis of the deposited data

Results flagged for a closer look

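The 15 run 2 libraries labelled precursor enter none of the main comparisons, and only alternative fits named as such use any of them. Scd1 reached 7.08 TPM among them, against at most 0.0931 TPM in the 8 run 1 precursor libraries, which is a signal in data outside the measurements reported. In the 7 run 2 libraries with over 8% of TPM in erythroid markers Scd1 had 1.11 to 7.08 TPM, and in the other 8 it had 0.0303 to 0.212 TPM. The part of other cells in these values was not tested.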

How the results depend on the processing

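Counts of members called are set beside the share of all genes called by the same fit. G-CSF marrow against untreated gave 4 members (11.8% of all genes), with DESeq2 7 (16.6%), without the filter 6 (11.3%), on log2(TPM + 1) 8 (21.1%), on log2(TPM + 0.1) 8 (23.8%), from those groups alone 2 (10.2%) and with 1 library left out 0 to 4. ZA against untreated gave 0 (0.0339%), with DESeq2 1 (1.07%) and without the filter 3 (2.23%). Combined against untreated gave 1 (7.72%), with DESeq2 2 (11.9%), without the filter 2 (8.92%), on log2(TPM + 1) 15 (41.5%), on log2(TPM + 0.1) 17 (40.8%), from those groups alone 0 (5.62%) and with 1 library left out 0 to 2. Combined against G-CSF gave 0 (0.00679%) and with DESeq2 1 (1.68%). Combined against ZA gave 3 (4.33%), on log2(TPM + 0.1) 1 (4.05%), from those groups alone 0 (3.67%) and with 1 library left out 0 to 3. The interaction gave 0 (0.00679%), with DESeq2 1 (1.74%) and without the filter 3 (2.62%). Precursors combined against G-CSF gave 0 (0%) and with DESeq2 1 (0.574%). Precursors against marrow gave 21 (41.7%), on log2(TPM + 1) 30 (60.7%), on log2(TPM + 0.1) 29 (62.4%), with 1 library left out 20 to 23 and from run 2, whose labels go against markers, 0 (0%). The cause of these moves was not tested, beyond the fewer libraries that some of the fits hold.

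Replicate numbers were not taken as pairs, since the labels do not say that a number marks a shared litter, batch or day. Same-numbered libraries of different treatments deviated together weakly (correlations of −0.04 to 0.11 in marrow and −0.03 to −0.01 in precursors). These correlations hold no pair of a precursor and a marrow library, so they cannot speak to pairing in that comparison. With the number as a replicate block, G-CSF against untreated gave 4 calls (9.24% of all genes), combined against untreated 0 (3.26%) and combined against ZA 0 (2.63%). Precursors against marrow, from same-numbered pairs only, gave 8 (15.8%).

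TPM are shares of a total, of which small RNA genes took 40.0% in untreated marrow library 1, and the median of all genes on log2(TPM + 1) was 0.52 for G-CSF against untreated, 0.25 for ZA, 0.79 for combined against untreated, 0.52 for combined against ZA and 0.45 for precursors against marrow. The share of calls that were higher moved with it, from 41.6 to 94.6% for G-CSF, from 41.1 to 97.4% for combined against untreated, from 43.1 to 85.3% for combined against ZA and from 46.3 to 81.2% for precursors against marrow.

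Some log2 differences changed sign. Fdps was −0.032 for ZA against untreated without ZA library 2, with 0.33 without ZA library 3. For combined against untreated it was 0.99 on log2(TPM + 1) and 1.04 on log2(TPM + 0.1), and −0.33 to 0.020 with 1 library left out. For combined against ZA it was 0.43 and 0.44 on the 2 TPM scales. In precursors with against without G-CSF, Fdps was −0.062 to 0.030 with 1 library left out and 0.32 over 17 libraries of both runs. Fasn was 0.021 over those 17, which take in libraries of run 2, a run with labels that go against markers. Soat1 was −0.044 on both TPM scales. For precursors combined against G-CSF, Fdps was −0.12 on both. In run 2 precursors against run 2 marrow, as labelled, the difference was −0.076 for Mvd, −0.22 for Fdps, 0.21 for Fdft1, −0.48 for Tm7sf2, −0.14 for Ebp, −0.14 for Srebf1, −0.15 for Insig1, 0.57 for Mylip, −0.15 for Npc1, −0.14 for Npc2, −0.48 for Soat1, −0.12 for Acaca, 1.17 for Scd1, 0.21 for Fads1, 0.20 for Fads2, −0.32 for Elovl6 and 0.39 for Acss2, with an adjusted p of 1.00 each.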
